A study of Mus musculus with 32 samples.

Results

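Immediate early genes were examined in whole mouse bladder: Fos, Fosb, Jun, Junb, Egr1, Atf3, Nr4a1, Ier2, Dusp1 and Zfp36. They were chosen by symbol as genes that respond within minutes to stimuli, handling of tissue among them, and they make up 10 of the 32285 genes in the count table, where each symbol matched 1 Ensembl gene. The study asked how the female C57BL/6 bladder changes over the lifespan and whether senolytic drugs alter it in old age. Total RNA of 32 whole bladders was sequenced with a stranded, ribosomal RNA-depleted protocol after harvest into RNAlater. The bladders came from young mice of 2 months (n = 6), middle-aged mice of 10 months (n = 5) and untreated old mice of 26 months (n = 6). The other old mice, also 26 months at harvest, had received oral gavage on 3 days in a row each month from 21 months of age, with water (n = 5), with vehicle (n = 4) or with dasatinib plus quercetin (D + Q, n = 6). Dasatinib, a tyrosine kinase inhibitor, was given at 5 mg/kg per day and quercetin, a plant flavonol, at 50 mg/kg per day. The vehicle was 60% Phosal 50 PG, 30% polyethylene glycol and 10% ethanol. The drugs were dissolved in this vehicle. D + Q against water thus differs by drugs and vehicle together, and D + Q against untreated old bladders also by gavage. A whole bladder holds urothelium, smooth muscle, stroma, vessels, nerves and immune cells, so that fewer cells of a type cannot be told apart from less RNA per cell.

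Immediate early genes are transcribed within minutes of a stimulus, without new protein synthesis, because the factors that switch them on, such as CREB and SRF with its ETS partners, already sit in the cell and are activated by kinases. Many of them encode transcription factors that pass the signal on, and others encode proteins that end it, by removing phosphate from MAP kinases or by destroying unstable mRNAs. Their mRNAs are short-lived. In the bladder, stretch, injury and nerve stimulation are known to induce several of them, and dissection or dissociation of a tissue does so in many cell types.

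On the mm10 genome the genes for the AP-1 proteins were annotated at chr12:85473890-85477273 (Fos, plus strand), chr7:19302696-19310051 (Fosb, minus strand), chr4:95049034-95052222 (Jun, minus strand) and chr8:84974484-84978718 (Junb, minus strand). The other transcription factor genes were at chr1:191170296-191218039 (Atf3, minus strand) and chr15:101254269-101274795 (Nr4a1, plus strand). Ier2 was at chr8:84661331-84662854, Dusp1 at chr17:26505590-26562128 and Zfp36 at chr7:28376784-28380253, all on the minus strand. A count covers all annotated exons of a gene, including its untranslated parts. Exons of 4 of the genes overlap those of a gene on the other strand. Whether the reads were assigned by strand is not given in the sources used here, so those counts are uncertain by an amount that was not measured. The levels of the partners that follow are those of whole genes and not of the shared exons. The partner of Jun, Junos, was measured at 7.25 to 13.5 CPM (counts scaled by TMM to a common library total) over the 32 bladders, that of Junb, Prdx2, at 113 to 163, that of Dusp1, Ergic1, at 178 to 217, and that of Zfp36, Gm44710, at 4.1 to 7.51.

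Promoter sequence is shown for 5 members that come up in the group comparisons or in the closest pairs below, to let their regulatory letters be compared. Each line holds the 250 bases before the RefSeq transcription start on GRCm38.p6, read 5′ to 3′ along the strand of the gene. For Dusp1, Nr4a1 and Atf3 that start lies inside the span given above for the counted gene, which reaches further upstream. The windows are chr17:26508473-26508722 (Dusp1, minus strand), chr15:101266596-101266845 (Nr4a1, plus strand), chr12:85473640-85473889 (Fos, plus strand), chr1:191183334-191183583 (Atf3, minus strand) and chr4:95052223-95052472 (Jun, minus strand). Capitals mark the core of the cyclic AMP response element, TGACG or its reverse complement CGTCA, the full element TGACGTCA, and the TATA box TATAAA.
Dusp1: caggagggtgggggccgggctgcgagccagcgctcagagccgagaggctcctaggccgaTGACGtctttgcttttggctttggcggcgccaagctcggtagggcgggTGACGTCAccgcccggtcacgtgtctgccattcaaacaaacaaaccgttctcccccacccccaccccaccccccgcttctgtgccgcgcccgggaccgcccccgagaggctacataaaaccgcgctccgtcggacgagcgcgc
Nr4a1: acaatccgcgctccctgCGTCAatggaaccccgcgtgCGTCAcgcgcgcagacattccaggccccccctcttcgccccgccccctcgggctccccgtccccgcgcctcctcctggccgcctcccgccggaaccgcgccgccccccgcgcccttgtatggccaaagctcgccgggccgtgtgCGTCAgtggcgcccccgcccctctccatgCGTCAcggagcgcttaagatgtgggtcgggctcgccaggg
Fos: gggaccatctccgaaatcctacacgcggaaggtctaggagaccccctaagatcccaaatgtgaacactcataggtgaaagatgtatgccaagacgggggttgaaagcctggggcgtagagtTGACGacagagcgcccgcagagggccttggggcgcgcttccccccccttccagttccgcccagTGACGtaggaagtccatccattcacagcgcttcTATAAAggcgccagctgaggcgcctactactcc
Atf3: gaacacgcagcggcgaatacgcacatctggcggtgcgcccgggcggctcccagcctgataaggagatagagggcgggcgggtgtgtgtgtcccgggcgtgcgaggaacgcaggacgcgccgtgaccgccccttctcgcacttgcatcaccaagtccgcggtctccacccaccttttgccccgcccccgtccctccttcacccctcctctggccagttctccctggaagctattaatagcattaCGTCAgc
Jun: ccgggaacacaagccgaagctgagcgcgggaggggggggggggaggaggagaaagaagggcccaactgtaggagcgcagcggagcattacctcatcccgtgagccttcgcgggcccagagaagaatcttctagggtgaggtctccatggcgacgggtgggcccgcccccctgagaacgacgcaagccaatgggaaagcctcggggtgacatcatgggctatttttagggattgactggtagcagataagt
Nr4a1 has 4 cores, with first bases at -233, -213, -69 and -40 from the start. Dusp1 has the full element at -143, which overlaps a core on each strand, and a further core at -191. The Fos window has cores at -129 and -66 and a TATA box at -33, and that of Atf3 a core at -7. The Jun window has none of the marked letters. Windows were held for 8 of the 10 members. On either strand the core was in 6 of those 8 (also in Fosb and Junb) and in 17.8% of the 32851 promoter windows of all genes. The full element was in 1 member window, that of Dusp1, and in 1.55% of all windows. TATAAA on the strand of the gene was in 1 member window and in 7.59% of all. The AP-1 site TGAGTCA, searched on both strands, was in none of the 8 and in 4.46% of all. A CArG box, the DNA element of SRF, was matched in 1 member window, that of Zfp36 at -58, and in 1.47% of all. These letter matches are descriptions and not sites shown to be bound. Egr1 and Ier2 are named only.

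The libraries held 15088372 to 52650259 counts in genes, with a median of 34074787, and the shallowest were young bladder 3, at 15088372, and young bladder 4, at 16881598. Each member had at least 40 counts in every bladder. No 2 bladders of a group had identical counts, in 71 pairs compared, and every pair differed by more than sampling noise. The defining transcripts of the labelled tissue were present: the summed level of 7 urothelial genes was 8220 to 10800 TPM, counts divided by gene length on a scale with the same total in every library, and that of 7 smooth muscle genes 24600 to 46600. Young bladder 3 stood apart for the members, as described below, and values with and without it are given where a result rests on it.

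Per unit of transcript length, Junb and Jun were the most abundant members and Fosb the least. Mean levels over the 32 bladders, in TPM, were 177 for Junb, 108 for Jun, 77.9 for Ier2, 69.8 for Nr4a1, 58.6 for Zfp36, 40.6 for Dusp1, 30.2 for Fos, 21.5 for Egr1, 18.4 for Atf3 and 4 for Fosb. The ranges of neighbours in this order overlapped throughout; Nr4a1, for example, ran from 12.1 to 245 TPM and Ier2 from 58.4 to 95.6. The members also differed in how far their own level moved between bladders. On the CPM scale the highest bladder exceeded the lowest 27.8-fold for Fosb, 23.5-fold for Atf3, 21.5-fold for Nr4a1, 8.77-fold for Fos, 7.9-fold for Egr1, 7.4-fold for Dusp1 and 5.58-fold for Jun, but 1.91-fold for Junb, 1.75-fold for Ier2 and 1.62-fold for Zfp36.

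**Figure D1:**
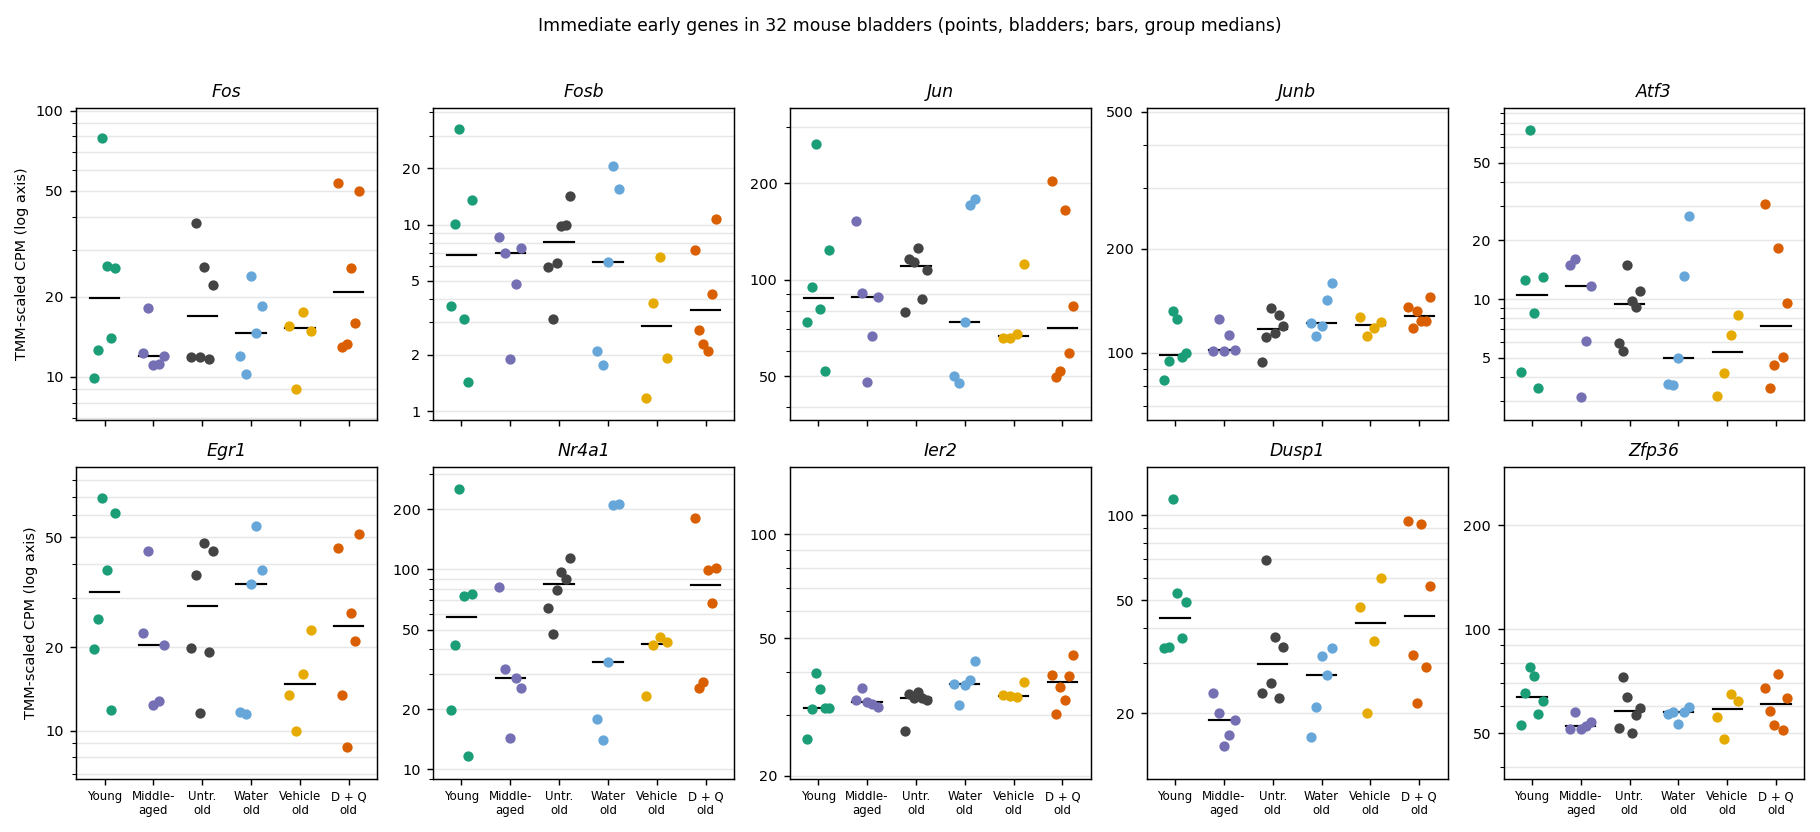
Level of each of the 10 genes in each of the 32 bladders, in CPM on a log axis, by group; each point is 1 bladder and the bar in each group is its median. Young bladder 3 was the highest of all 32 for 8 of the 10 genes, whereas Junb, Ier2 and Zfp36 stayed within a narrow band in every group.

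Among the AP-1 genes, whose products pair to bind DNA, Fos was low in most bladders and several times higher in a few. Fos was at 9.95 CPM in the lowest, 19.8 at the median and 78.8 in the highest of the 6 young bladders. In middle age it was at 12.3, 18.1, 11.1, 11.2 and 12 CPM in bladders 1 to 5. In untreated old bladders the lowest, median and highest levels were 11.7, 17.0 and 37.7 CPM. Young bladder 3 alone held the young maximum, and all 3 groups overlapped. After water gavage Fos was at 12, 10.3, 23.9, 14.6 and 18.5 CPM and after vehicle at 15.6, 8.99, 17.5 and 14.9 CPM. After D + Q the lowest, median and highest were 13, 20.8 and 53.6 CPM. D + Q bladders 1 and 6, at 53.6 and 50.1 CPM, were above every other old bladder, and the remaining 4 lay within the range of the other old groups.

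Fosb, a close relative of Fos, spanned 1.44 to 32.5 CPM in young, 1.91 to 8.61 in middle-aged and 3.11 to 14.3 in untreated old bladders. It spanned 1.76 to 20.7 CPM with water, 1.17 to 6.71 with vehicle and 2.10 to 10.7 with D + Q. Jun, the main partner of Fos, spanned 51.9 to 265 CPM in young, 47.9 to 153 in middle-aged and 79.5 to 126 in untreated old bladders. With water, vehicle and D + Q the spans of Jun were 47.5 to 179, 65.7 to 112 and 49.5 to 204 CPM. The untreated old bladders were the most alike for Jun, with an SD of 0.26 on the log2 scale, against 0.38 to 0.93 in the other 5 groups. Junb, a Jun relative and often a weaker activator, behaved otherwise. Its mean was 105 ± 18.8 CPM (SD, n = 6) in young bladders, 108 ± 10.5 (n = 5) in middle age, 117 ± 14.5 (n = 6) in untreated old ones, 131 ± 19.0 (n = 5) with water, 120 ± 6.48 (n = 4) with vehicle and 130 ± 9.77 (n = 6) with D + Q, and neighbouring groups in the order of these means overlapped.

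Of the other transcription factors, Nr4a1, an orphan nuclear receptor induced by cyclic AMP and calcium signals, had the largest pooled SD (below), and Atf3 the widest fold range. In young bladders the lowest, median and highest levels were 11.7, 57.9 and 251 CPM. In middle age Nr4a1 was at 81.7, 31.8, 14.3, 28.8 and 25.4 CPM in bladders 1 to 5. In untreated old bladders it was at 47.4 CPM in the lowest, 84.1 at the median and 114 in the highest. Thus middle-aged bladder 1 lay among the old ones, while the other 4 middle-aged bladders lay below all of them. With water Nr4a1 was at 17.8, 14.1, 34.3, 209 and 212 CPM, with vehicle at 23.4, 41.7, 45.8 and 43.5 CPM. With D + Q the lowest, median and highest were 25.4, 84.1 and 180 CPM. Water bladders 4 and 5 were above every other bladder of the series except young bladder 3, and the other 3 water bladders were below all 6 untreated old ones.

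Atf3, a stress-induced factor of the ATF/CREB family, spanned 3.49 to 73.5 CPM in young bladders, and the next highest after young bladder 3 was at 13. In the other groups Atf3 spanned 3.13 to 16.1 CPM in middle age, 5.44 to 15 in untreated old bladders, 3.63 to 26.7 with water, 3.19 to 8.27 with vehicle and 3.50 to 30.6 with D + Q. Egr1, a zinc finger factor driven mainly through SRF and ELK proteins and annotated at chr18:34859823-34864984 on the plus strand, spanned 11.9 to 69.0 CPM in young, 12.4 to 44.5 in middle-aged and 11.6 to 47.4 in untreated old bladders. With water, vehicle and D + Q the spans of Egr1 were 11.5 to 54.8, 9.93 to 23.1 and 8.73 to 51.2 CPM. For both genes every group overlapped every other.

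Dusp1, a nuclear phosphatase that switches off MAP kinases, was the only member called (edgeR, Benjamini-Hochberg adjusted p under 0.05) in both steps from one age to the next, described below. In young bladders it was at 34.1 CPM in the lowest, 43.2 at the median and 114 in the highest. In middle age it was at 23.6, 20.1, 15.3, 16.7 and 19.0 CPM. In untreated old bladders it was at 22.6 CPM in the lowest, 29.9 at the median and 69.4 in the highest. All 5 middle-aged bladders lay below all 6 young ones, and 4 of the 6 untreated old bladders lay above all middle-aged ones. With water Dusp1 was at 16.5, 21.1, 31.8, 27.4 and 34.1 CPM, with vehicle at 47.3, 20, 36.0 and 60.2 CPM. With D + Q it was at 21.7 CPM in the lowest, 44.2 at the median and 95.5 in the highest, and bladders 1 and 4, at 95.5 and 93.4 CPM, were above every other old bladder. Zfp36 encodes tristetraprolin, which destabilises AU-rich mRNAs, and spanned 48.0 to 77.7 CPM over all 32 bladders. Ier2, a short nuclear protein of the immediate early response, spanned 25.5 to 44.6 CPM.

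The first comparison asked how middle-aged bladders differ from young ones. Dusp1 was lower in middle age, at 19.0 ± 3.23 CPM (SD, n = 5) against 53.6 ± 30.5 (n = 6), a log2 change of -1.49 (SE 0.29, edgeR adjusted p = 0.00816) or 2.82-fold. An exact permutation test on log2(CPM + 0.1), two-sided, gave p = 0.00216, the smallest that 5 against 6 bladders can give. Dusp1 was the only member called, 1 of 10, where 10.8% of the 16754 genes tested were called (4.96% higher and 5.85% lower), so the count of members is near the background. Without young bladder 3 the change of Dusp1 was -1.14 (edgeR adjusted p = 0.00207). Of the 10 log2 changes 8 were negative, with a median of -0.77 against 0.003 over all genes, while 6 of 10 were negative without young bladder 3, with a median of -0.17. Those of Fos (-1.08, SE 0.46, edgeR adjusted p = 0.145) and Nr4a1 (-1.10, SE 0.67, edgeR adjusted p = 0.312) did not pass, and without that bladder they were -0.44 and -0.29. The direction of Jun and Atf3, -0.36 and -0.84, turned to 0.07 and 0.31 without young bladder 3. In the same comparison 3 of 5 fibroblast markers were lower (summed level 5100 to 8640 TPM in young and 3830 to 4480 in middle-aged bladders), as were 2 of 5 endothelial markers (162 to 179 against 141 to 155 TPM) and 2 of 4 Schwann cell markers (65.6 to 86.5 against 49.9 to 63.9 TPM), and 2 of 4 B cell markers were higher (3.3 to 7.94 against 5.65 to 13.4 TPM). None of these markers was at 0 throughout a group. Their part in the change of Dusp1 was not tested.

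Untreated old bladders were compared with middle-aged ones to follow the later part of life. Nr4a1 was higher in the old, at 81.9 ± 23.9 CPM (SD, n = 6) against 36.4 ± 26.1 (n = 5), a log2 change of 1.2 (SE 0.37, edgeR adjusted p = 0.0316). Its exact permutation p was 0.0152, and 3 of the 6 old bladders lay above all 5 middle-aged ones. Dusp1 was also higher, at 35.4 ± 17.7 CPM (n = 6) against 19.0 ± 3.23 (n = 5), a log2 change of 0.93 (SE 0.27, edgeR adjusted p = 0.0235) with an exact permutation p of 0.0152. These were 2 of 10 members, where 24% of the 17156 genes tested were called (13% higher and 11% lower), again near the background. When all 6 groups shared a single estimate of the spread, neither passed: Nr4a1 changed by 1.19 (edgeR adjusted p = 0.274) and Dusp1 by 0.93 (edgeR adjusted p = 0.103). Nr4a1 passed in 4 of 11 fits that each left out 1 bladder, and was lost without any 1 of middle-aged bladders 2, 3, 4 and 5 or untreated old bladders 4, 5 and 6. Leaving out any 1 of middle-aged bladders 3, 4 and 5 left no member called. Of the 10 log2 changes 9 were positive, with a median of 0.34 against -0.005 over all genes. Here 4 of 4 B cell markers were higher (5.65 to 13.4 TPM summed in middle-aged and 86.1 to 259 in old bladders), as were 3 of 3 T cell markers (3.99 to 6.08 against 17 to 37.7 TPM) and 4 of 5 macrophage markers (794 to 977 against 1170 to 1700 TPM). By contrast 3 of 7 urothelial markers were lower (9930 to 10800 against 8580 to 9340 TPM), as were 2 of 4 Schwann cell markers (49.9 to 63.9 against 37.6 to 50.6 TPM), 2 of 7 smooth muscle markers (26100 to 37100 against 25800 to 31800 TPM) and 1 of 5 fibroblast markers (3830 to 4480 against 3160 to 4020 TPM). The 1 neutrophil marker tested was higher, and another, Ly6g, was at 0 in all middle-aged bladders. None of the other markers named was at 0 throughout a group, and their part in the changes of Nr4a1 and Dusp1 was not tested.

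Between the ends of the lifespan, untreated old against young, no member was called (edgeR smallest adjusted p = 0.238, and 0 of 10 at an unadjusted p under 0.05, against 36.3% of genes), where 25.1% of the 16873 genes tested were called (12.6% higher and 12.4% lower). DESeq2 called no member either. Dusp1 changed by -0.58 on the log2 scale, with an interval of -1.24 to 0.08, and Nr4a1 by 0.08, with an interval of -1.02 to 1.18. The Atf3 value of -1.0 (interval -2.24 to 0.25) became 0.17 without young bladder 3, and the values of Fos, Fosb and Jun also turned direction. With the 2 shallowest young bladders left out, Junb was called, at a log2 change of 0.32 (edgeR adjusted p = 0.0195).

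In a test of any difference among the 6 groups, Dusp1 (edgeR F = 4.92, adjusted p = 0.0108) and Junb (edgeR F = 3.49, adjusted p = 0.0437) passed, 2 of 10 members where 31.9% of 18093 genes passed. Junb did not pass in 20 of the 32 fits that each left out 1 bladder.

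**Figure D2:**
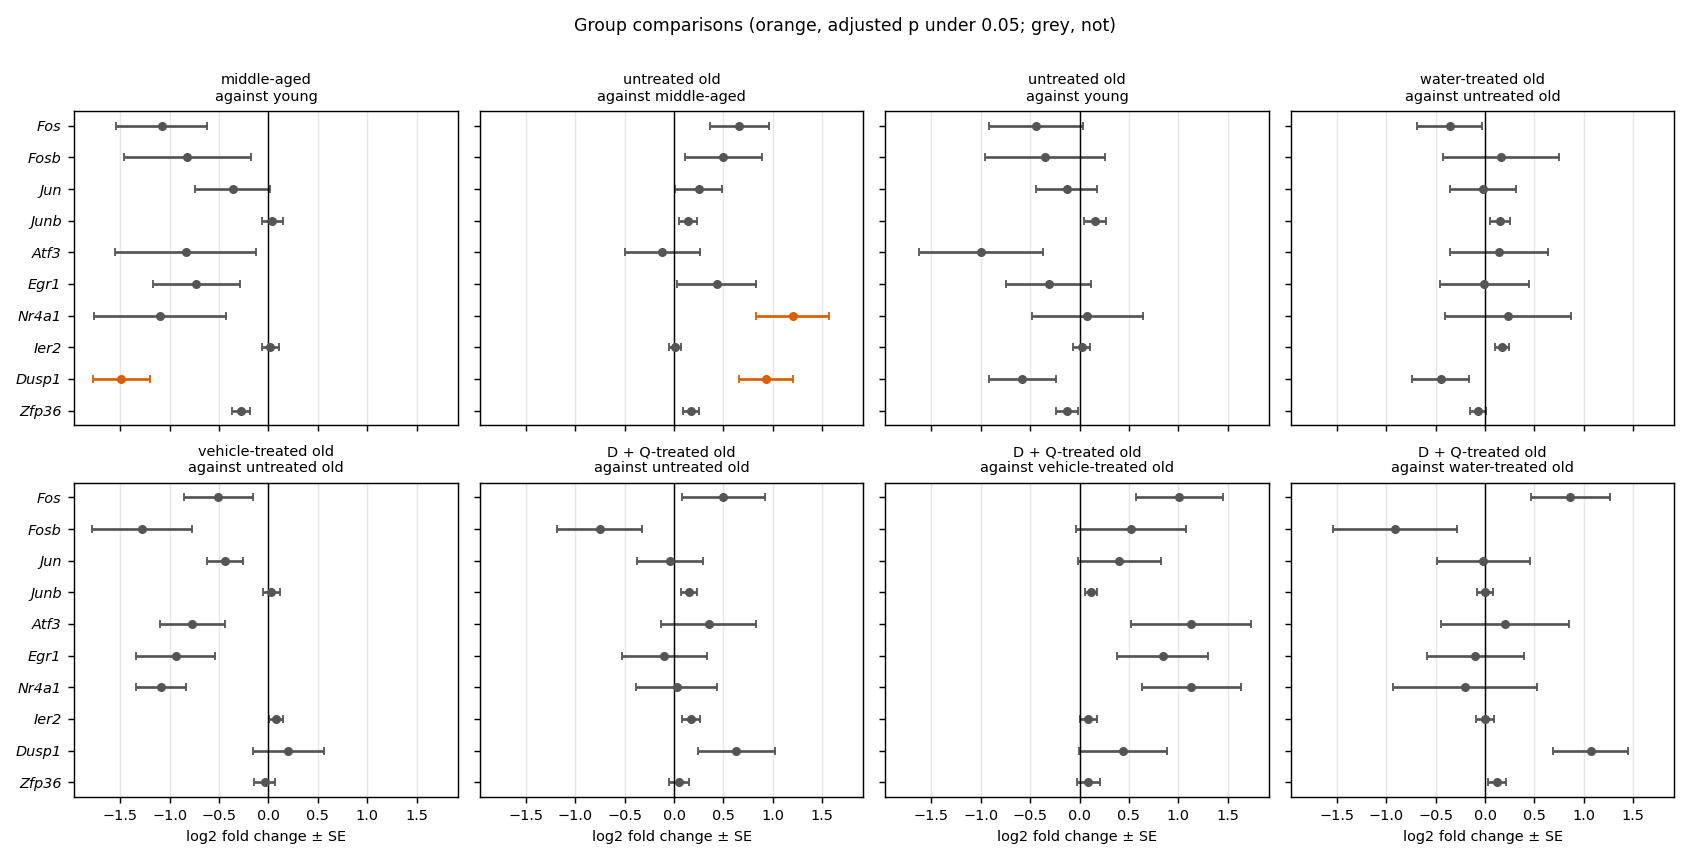
Log2 fold change of each of the 10 genes in the 8 comparisons, with bars for the fitted SE; orange points passed an adjusted p of 0.05 in edgeR and grey ones did not. The orange points are Dusp1 in middle-aged against young and Dusp1 and Nr4a1 in untreated old against middle-aged.

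The gavage groups, given water, vehicle or drugs in vehicle, were compared with untreated old bladders, which these comparisons share. With water no member was called, where 1% of the 17250 genes were (0.487% higher and 0.516% lower), and 1 of 10 members, Ier2, had an unadjusted p under 0.05, against 16% of genes. Ier2 was at 37.3 ± 3.90 CPM (SD, n = 5) with water against 32.8 ± 2.90 (n = 6), a log2 difference of 0.17 (SE 0.07, edgeR adjusted p = 0.292). DESeq2 called no member here. Nr4a1 differed by 0.23 on the log2 scale, with an interval of -1.02 to 1.48, the water group holding 3 low and 2 high bladders.

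With vehicle, Nr4a1 was at 38.6 ± 10.3 CPM (SD, n = 4) against 81.9 ± 23.9 (n = 6) in untreated old bladders, and all 4 vehicle bladders lay below all 6 untreated ones. The log2 difference was -1.09 (SE 0.25, unadjusted p = 0.00127, edgeR adjusted p = 0.315), and the exact permutation p was 0.00952 (the smallest that 4 against 6 bladders can give is 0.00476). It did not pass in edgeR, which called 0% of the 17440 genes, whereas DESeq2 called 132 genes, Nr4a1 among them (adjusted p = 0.0147). Fosb (-1.28, SE 0.51), Jun (-0.44, SE 0.18), Atf3 (-0.77, SE 0.33) and Egr1 (-0.94, SE 0.40) also had an unadjusted p under 0.05 and did not pass, with edgeR adjusted p-values of 0.542 to 0.566. In all, 5 of 10 members had an unadjusted p under 0.05, against 8.39% of genes. These members vary together between bladders (below), so their counts are not independent.

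With D + Q against untreated old bladders, no member had an unadjusted p under 0.05 and the smallest edgeR adjusted p was 0.417, where 0% of 17037 genes were called by edgeR, 12.9% had an unadjusted p under 0.05 and DESeq2 called 180 genes, no member among them. The largest difference in size was that of Fosb, at -0.75 on the log2 scale (interval -1.60 to 0.10). Dusp1 differed by 0.63 (interval -0.14 to 1.39) and Fos by 0.50 (interval -0.32 to 1.32). With D + Q 7 members were higher and 3 lower.

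Against vehicle, all 10 D + Q values were positive, from 0.09 to 1.13 on the log2 scale with a median of 0.48 against -0.003 over all genes. The largest were those of Nr4a1 (1.13, interval 0.14 to 2.12), Atf3 (1.13, interval -0.06 to 2.31) and Fos (1.01, interval 0.15 to 1.88). None passed (edgeR adjusted p = 0.994 for each), 0% of 17267 genes were called by edgeR, and DESeq2 called 10 genes and no member. At an unadjusted p under 0.05 there were 2 of 10 members, Fos and Nr4a1, against 4.18% of genes. Their exact permutation p-values were 0.186 and 0.214, and no member had an exact permutation p under 0.05. The members vary together between bladders (below), so neither these counts nor the 10 shared directions are independent. For Fos 3 of the 6 D + Q bladders lay above all 4 vehicle bladders, and for Nr4a1 4 of 6 did.

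Against water, Dusp1 was at 54.7 ± 32.9 CPM (SD, n = 6) with D + Q and 26.2 ± 7.34 (n = 5) with water. The log2 difference was 1.07 (SE 0.38, unadjusted p = 0.0144, edgeR adjusted p = 0.554) with an exact permutation p of 0.0887, and 3 of 6 D + Q bladders lay above all water ones. No member was called among 10, 1 had an unadjusted p under 0.05, edgeR called 0% of 17161 genes, of which 7.82% had an unadjusted p under 0.05, and DESeq2 called 69 genes and no member. Fosb went the other way, at -0.91 (interval -2.14 to 0.31).

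The spread between bladders of the same group was the most marked property of 7 of the members. Pooled over the 6 groups, the SD of log2(CPM + 0.1) was 1.21 for Nr4a1, 1.19 for Fosb, 1.12 for Atf3, 0.88 for Egr1, 0.75 for Fos, 0.71 for Jun and 0.64 for Dusp1. For Nr4a1 a difference of 1 SD is 2.31-fold. These 7 were at the 94.6th to 98.9th percentile of the 18117 genes kept, whose median SD was 0.16 and 90th percentile 0.54. Among genes of similar mean level (within 2-fold) they were at the 98.1st to 99.8th percentile. Junb, Zfp36 and Ier2, at 0.18, 0.17 and 0.16, were near the median of all genes, and at the 78.6th to 90.6th percentile of genes of similar level. The median of the 10 SDs was 0.73 (jackknife SE 0.10 over the 32 bladders), and 0.64 without young bladder 3.

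**Figure D3:**
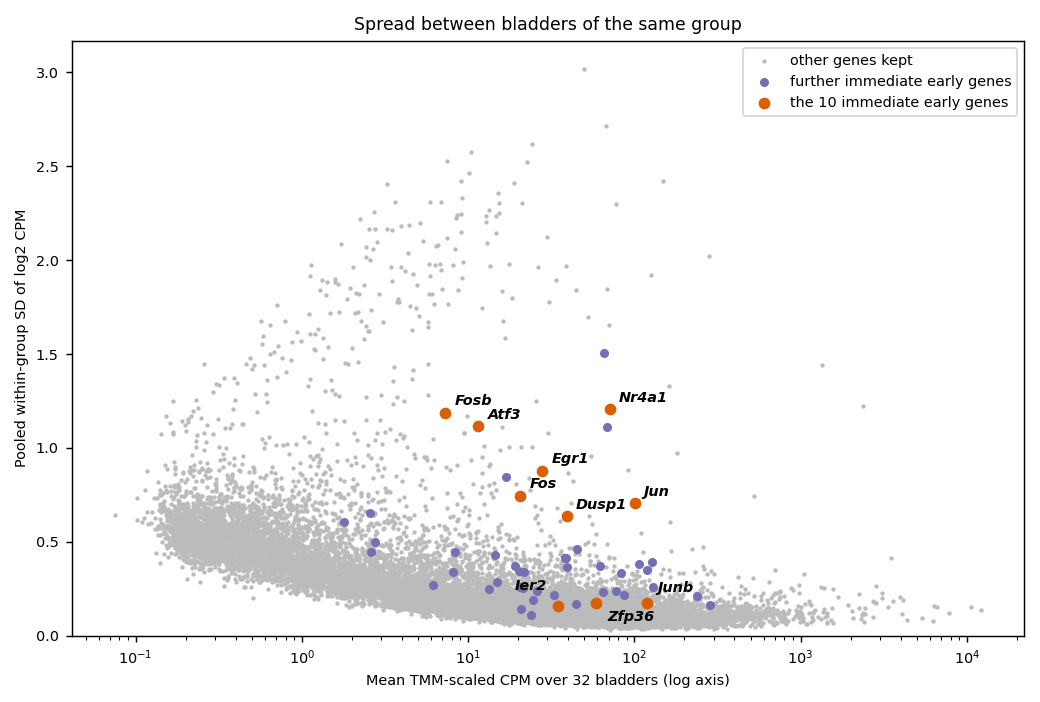
Pooled within-group SD of log2(CPM + 0.1) against mean level in CPM (log axis) for all genes kept (grey), with the further immediate early genes in purple and the 10 immediate early genes in orange. Of the 10, 7 lie above the 90th percentile of all genes, 0.54, and Junb, Zfp36 and Ier2 lie low.

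The spread was not equal between groups. The median SD of the 10 genes was 0.89 in young, 0.46 in middle-aged and 0.50 in untreated old bladders, and 0.71 with water, 0.44 with vehicle and 0.92 with D + Q, whereas the median SD of all genes was 0.11 to 0.19. In the young group bladder 3 was above its group mean for 10 of 10 members and bladders 1 and 5 below it for 10 of 10. Without bladder 3 the median SD in the young group was 0.54. Whether group spreads differed was not tested. The 39 of 40 further immediate early genes that were measurable had a median SD of 0.34, and 5 of them were above the 90th percentile of all genes. Chaperone genes of the heat shock response (13 genes), which also answer to stress, had a median SD of 0.13, genes of the kinases and factors upstream of the members (24 genes) 0.11, and genes induced by hypoxia (9 genes) 0.18. Larger median SDs than that of the members were found for the markers of adipocytes (1.79), erythroid cells (0.99), B cells (0.93) and neutrophils (0.83).

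Within groups the members rose and fell together. Across the 32 bladders, after subtraction of each group mean, all 45 pairs of members had a positive Pearson correlation, from 0.18 to 0.92 with a median of 0.62 (jackknife SE 0.12). With bladders permuted within their groups (100000 permutations, Benjamini-Hochberg adjustment over the 45 pairs), 43 pairs passed by Pearson's r and 41 by Spearman's rho, whose median was 0.59. Without young bladders 3 and 5, the 2 farthest from the median, 31 pairs passed and r ranged from -0.01 to 0.90 with a median of 0.54. All pairs share the same 32 libraries.

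The pairs fell unevenly. Jun, Atf3 and Nr4a1 were the most closely tied, at r = 0.92 for Jun and Atf3, 0.89 for Jun and Nr4a1 and 0.88 for Atf3 and Nr4a1 (permutation p = 1e-05 for each, the smallest they can give, adjusted p = 5.62e-05, rho 0.83 to 0.91). Without the 2 farthest bladders these were 0.90, 0.85 and 0.85. Fos went with Dusp1 (r = 0.85, permutation adjusted p = 0.0001) and with Egr1 (r = 0.80, permutation adjusted p = 5.62e-05), and Fosb with Nr4a1 (r = 0.83, permutation adjusted p = 5.62e-05). The narrow-band members Junb and Ier2 also moved together (r = 0.82, permutation adjusted p = 5.62e-05), and r was 0.79 without the 2 farthest bladders. Fosb was not correlated with Dusp1 (r = 0.28, permutation adjusted p = 0.141) or with Zfp36 (r = 0.18, permutation adjusted p = 0.371) past the threshold. As single examples, D + Q bladder 4 had Dusp1 at 93.4 CPM with Fosb at 2.10, and water bladder 4 had Fosb at 20.7 CPM with Dusp1 at 27.4.

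**Figure D4:**
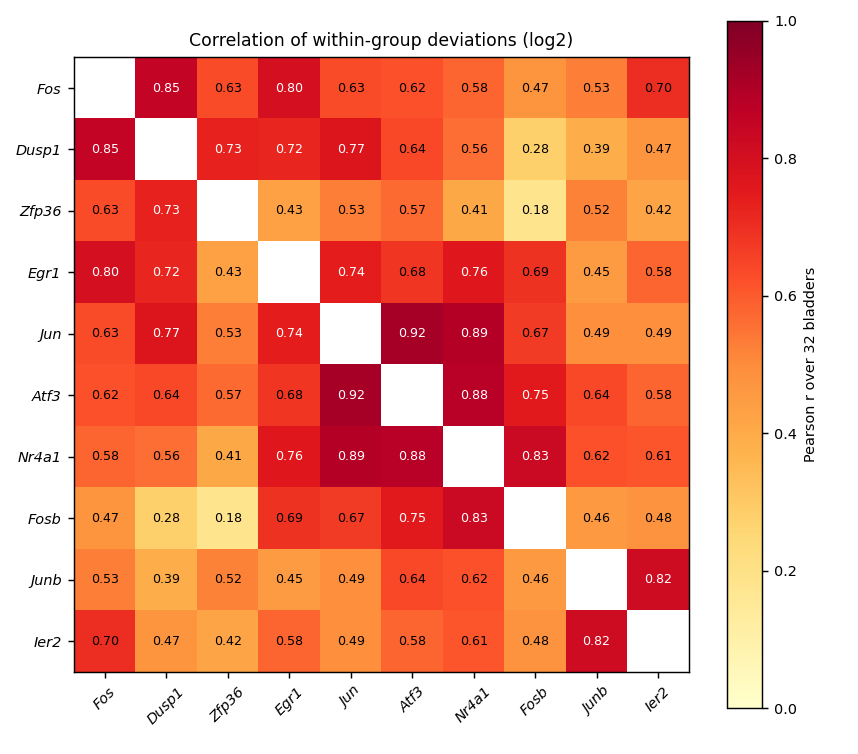
Pearson correlation of each pair of the 10 genes over the 32 bladders, from log2(CPM + 0.1) after subtraction of the group means; the colour scale gives r. All 45 values are positive, the highest is 0.92 for Jun and Atf3, and the lowest is 0.18 for Fosb and Zfp36.

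The mean of the 10 deviations from the group mean gives each bladder a single position. Young bladder 3 was highest, at 1.40 on the log2 scale with 10 of 10 members above the group mean, followed by D + Q bladder 1 at 0.88, water bladder 5 at 0.81 and water bladder 4 at 0.69. The lowest were young bladder 5 at -0.94, water bladder 2 at -0.78, D + Q bladder 3 at -0.73 and young bladder 1 at -0.71. High and low bladders thus occurred in the same groups, while vehicle bladders stayed between -0.24 and 0.26 and untreated old ones between -0.38 and 0.30. The members of a bladder did not always lie on the same side: untreated old bladder 2, with a mean deviation of 0.04, had the highest Fos and Dusp1 of its group, at 37.7 and 69.4 CPM, together with its lowest Nr4a1, Atf3 and Fosb, at 47.4, 5.44 and 3.11 CPM.

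**Figure D5:**
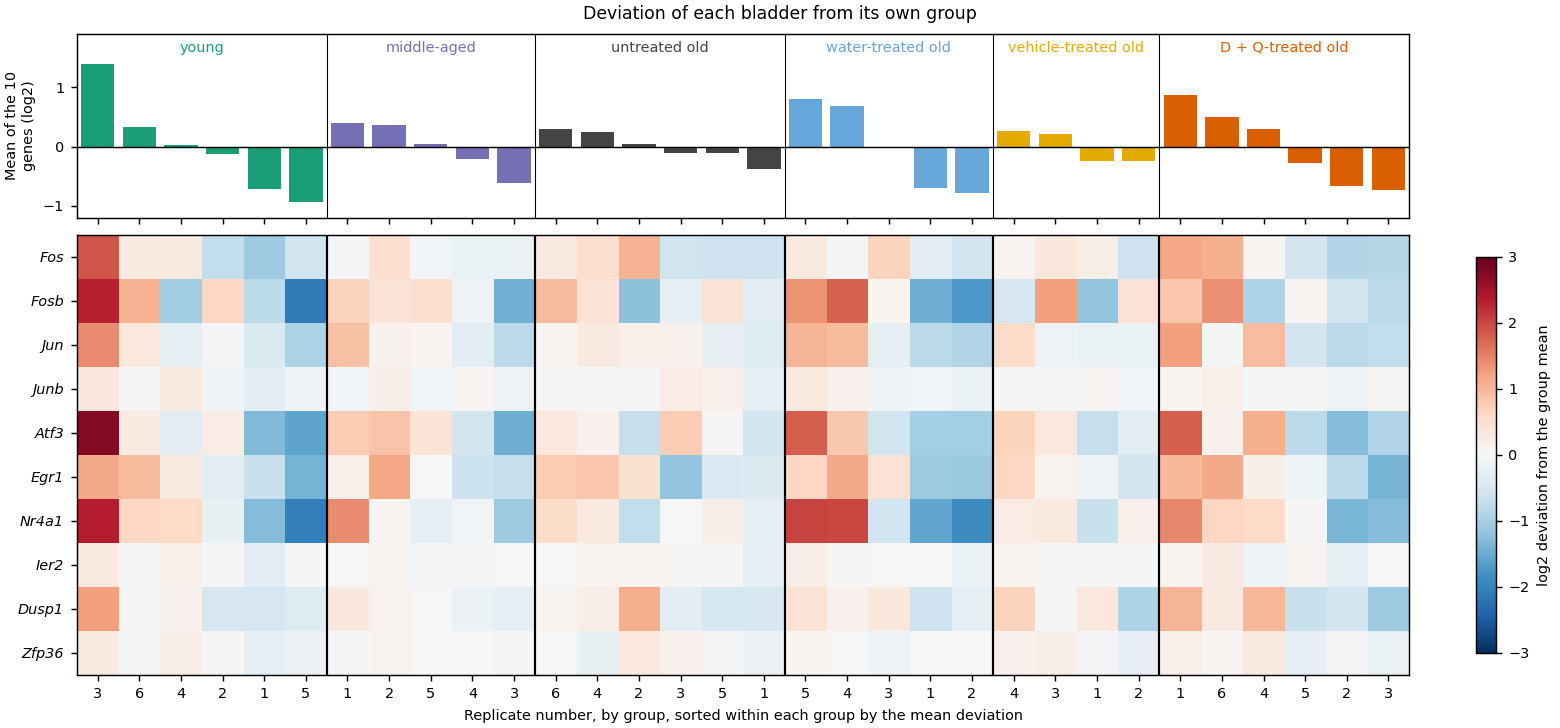
Deviation of each of the 10 genes (rows) from its group mean in each of the 32 bladders (columns, sorted within group), in log2 units on a colour scale that ends at -3 and 3, with the mean of the 10 above as bars. Young bladder 3 is raised throughout, with a mean of 1.40, and young bladder 5 lowered throughout, with a mean of -0.94.

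As a description over the 32 bladders, this mean deviation had r = -0.04 with the log2 total count and -0.03 with the share of mitochondrial counts, although the bladder with the highest value was also the shallowest. Without the 2 farthest bladders r with the total count was 0.28. With the mean deviation of cell type marker lists r ranged from -0.23 (fibroblast) to 0.29 (skeletal muscle), and without the 2 farthest bladders it reached 0.40 for adipocyte markers. It was 0.45 with heat shock genes, 0.06 with the genes upstream of the members and -0.14 with hypoxia genes, and 0.92 with the 39 further immediate early genes. Time from death to RNAlater and hour of harvest are not given in the sources used here, and their part in the spread was not tested.

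Outside the list, the 10 genes whose within-group pattern over the 32 bladders was most like the mean of the members, by Pearson's r, were Sik1 (0.89), Ptgs2 (0.88), Dusp8 (0.86), Arc (0.86), Btg2 (0.85), Csrnp1 (0.83), Slc25a25 (0.82), Dusp5 (0.81), Ccn2 (0.81) and Nr4a2 (0.80). Of these, 7 were on the list of further immediate early genes, and Ptgs2, the inducible cyclooxygenase, Dusp8, a MAP kinase phosphatase, and Slc25a25, a mitochondrial carrier, were not. That list was chosen with earlier results of these data known. Over all 18107 other genes the 5th to 95th percentile of r was -0.39 to 0.39 and 41 genes exceeded 0.7, 15 of them among the 39 further immediate early genes. Without the 2 farthest bladders the 10 values were 0.72 to 0.86. Sik1, an inducible kinase of cyclic AMP signalling, moved little in amount, from 64.9 to 144 CPM, whereas Ccn2, a matricellular growth factor gene, ran from 8.89 CPM in middle-aged bladder 3 to 322 in D + Q bladder 1.

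The further immediate early genes, a list of 40 that includes other AP-1 and EGR members, dual-specificity phosphatases and early inflammatory genes, were read in the same comparisons. This list was chosen with earlier results of these data known, so its counts are a description. In middle-aged against young bladders 5 of the 39 tested were lower and none higher (5.85% and 4.96% of all genes), with a median log2 change of -0.28: Ccn1 (-2.46, edgeR adjusted p = 0.0422), Cebpd (-0.88, edgeR adjusted p = 0.0423), Gadd45g (-0.64, edgeR adjusted p = 0.0422), Dusp6 and Nfkbia. Without young bladder 3 there were 3, without young bladder 6 or any 1 of middle-aged bladders 2, 3 and 5 there was 1, Dusp6, and with DESeq2 there were 11. In untreated old against middle-aged bladders 15 of 39 were higher and none lower (13% and 11% of all genes), with a median of 0.30, among them Dusp2 (1.9, edgeR adjusted p = 0.000152), Ccn2 (1.88, edgeR adjusted p = 0.00129) and Socs3 (1.09, edgeR adjusted p = 0.00922). Dusp2 is a phosphatase of immune cells, and the B and T cell markers given above moved in the same direction. Their part in the change of Dusp2 was not tested. With all 6 groups in a single fit 8 were higher. In untreated old against young bladders 4 were higher, Dusp2 (1.15), Trib1 (0.57) and Tnfaip3 (0.55) among them, and 2 lower (12.6% and 12.4% of all genes), and without young bladder 3 there were 9 higher and 0 lower. In the 5 comparisons among old groups none of the 39 was called by edgeR.

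The lists of upstream and stress genes are given beside the shares of all genes called, 10.8% in middle-aged against young, 24% in untreated old against middle-aged and 25.1% in untreated old against young bladders. Of 24 genes upstream of the members, 0 were called in the first comparison. In the second, 2 were higher and 3 lower, among them Rps6ka1, a kinase of the ERK pathway (0.21 on the log2 scale), and Elk1, a partner of SRF (-0.17). In the third, 1 was higher (Rps6ka1, 0.34) and 2 lower (Srf, -0.22, and Map2k4, -0.14). Of 13 heat shock genes, Dnaja1 was lower in the first comparison (-0.16), Hsp90aa1 (0.24) and Dnaja1 (0.14) were higher in the second and Cryab was lower in the third (-0.19). Of 9 hypoxia genes, 1 was higher and 1 lower in the first (Slc2a1, 0.23, and Pfkfb3, -0.37), 3 were higher and 1 lower in the second (Pfkfb3, 0.53, and Ankrd37, 0.50, among the higher, and Car9, -0.40), and 2 were higher in the third (Ankrd37, 0.85, and Slc2a1, 0.24).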

How the data were processed

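RNA of 32 bladders was measured by RNA-seq. Per the labels and the methods, the authors aligned reads with STAR 2.7.3 to mm10 and counted them per gene with Subread; the deposited counts are whole numbers and not normalised. The authors also deposited log2 values, which equal log2 of (count + 1) per gene length scaled to a sum of 100000 in each bladder, and these served in alternatives. Symbols were matched for 32158 of 32285 genes. Counts were scaled by TMM and tested between pairs of groups with edgeR 4.0.16 (R 4.3.3, quasi-likelihood, filterByExpr, Benjamini-Hochberg adjusted p under 0.05). Intervals are nominally 95%, from the fitted SE by a normal approximation. They are narrower than the quasi-likelihood F test would give, so an interval that excludes 0 is not a test. DESeq2 1.42.0 and limma 3.58.1 served as alternatives, as did other scaling, filters, 1 fit of all groups, replicate numbers as a block and leaving out each bladder. The 0.1 in log2(CPM + 0.1) is a pseudocount. Permutation tests (two-sided) were run with numpy 2.4.6, with ranks and the Benjamini-Hochberg adjustment over pairs from scipy 1.17.1. The labels give age and treatment by group and tell the bladders of a group apart only by number. The p-values thus set group differences against the spread between these samples. All 10 members were tested in every comparison. Those called or past a log2 change of 1 were named, and some others were named beside them. Genes outside the list were named by the highest and lowest r. The tests were tried on simulated data. The members and lists were chosen with earlier results of these data known. Marker lists are by textbook cell type.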

Additional observations from a re-analysis of the deposited data

Results flagged for a closer look

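Dixon's criterion was applied to the CPM values of 10 genes in 6 groups. In 11 of these 60 sets the highest or lowest bladder lay far from the rest of its group. Chance meets the criterion in about 1 of 20 groups only if values are normally distributed, which was not tested for these CPM values. The criterion was not applied on the log2 scale, so no excess over chance is claimed. Young bladder 3 was the far one in 5 of them: Fos was at 78.8 CPM there against a group median of 19.8, Jun at 265 against 87.9, Atf3 at 73.5 against 10.5, Nr4a1 at 251 against 57.9 and Dusp1 at 114 against 43.2. These 5 are not independent, since the genes vary together, and this was the shallowest library. In middle age Fos was at 18.1 CPM in bladder 2 against a median of 12, and Nr4a1 at 81.7 CPM in bladder 1 against 28.8. Vehicle bladder 4 had Jun at 112 CPM against a median of 66.9 and Ier2 at 37.4 against 34.1. Among untreated old bladders Dusp1 was at 69.4 CPM in bladder 2 against a median of 29.9. There Ier2 was at 27.0 CPM in bladder 1 against 33.6, the only one of the 11 in which the far bladder was the lowest.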

How the results depend on the processing

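The lower Dusp1 of middle-aged against young bladders was called under every alternative run, between -1.60 and -1.14 when single bladders were left out, -1.36 (edgeR adjusted p = 0.0445) with a replicate block, and -1.04 with the 2 shallowest young bladders left out, a choice made after seeing the data. DESeq2 and a single fit of all 6 groups each called 2 members there, Zfp36 being the other, and leaving out single bladders gave 1 to 2. In untreated old against middle-aged bladders the count of members called was 0 in the single fit and 0 to 2 without single bladders. Without these, Nr4a1 ranged from 0.99 to 1.73 and Dusp1 from 0.62 to 1.03. In untreated old against young bladders 1 member was called without the 2 shallowest young bladders, and Atf3 there turned from -1.0 to 0.18 in that setting, and without single bladders ranged from -1.23 to 0.17, the latter without young bladder 3. DESeq2 called 1 member, Nr4a1, in vehicle against untreated old bladders. Of any difference among 6 groups, 1 member remained with no filter and 1 to 2 without single bladders. The median SD of the members was 0.64 to 0.74, their median pairwise r 0.51 to 0.65 and the pairs that passed 31 to 43. Over 658 member values under other settings 611 kept their direction and side of the threshold and 41 turned direction, and over 880 without single bladders 784 and 84 did. The cause of these changes was not tested. Counts of all genes called also moved. In middle-aged against young bladders they were 1811, but 716 with the replicate block, 2858 in the single fit, 3717 without the 2 shallowest young bladders and 728 to 2794 without single bladders. In untreated old against middle-aged bladders they were 4110, but 2519 in the single fit. With water against untreated old bladders they were 173, but 703 with DESeq2, 99 with no filter, 0 in the single fit, with limma and with the replicate block, and 37 to 199 without single bladders. D + Q against water went from 0 to 1 with the replicate block and to 0 to 3 without single bladders. The replicate block used the numbers in the titles, which are not known to pair bladders: same-numbered bladders had correlations of -0.30 to 0.16, in no comparison all over 0.1, and in none did every bladder correlate best with its own number. The library numbers in the descriptions differ from these for 6 bladders, and by them the correlations were -0.30 to 0.22, with the same outcome. Each member had 40 counts or more in every bladder, and the part of depth in these results was not tested. The few bladders per group limit the precision.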

Other observations

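A few bladders held many of the extreme values of early response genes. Young bladder 3 held the highest value of 8 of 10 members and of 12 of the 39 further immediate early genes, against 8.89% of all genes. D + Q bladder 1 held the highest of 11 of those 39, against 2.03% of all genes, although of none of the members. Middle-aged bladder 3 held the lowest value of 2 members and 11 of the 39, against 1.18% of all genes. Vehicle bladder 2 and young bladder 1 also held the lowest value of 2 members each, against 0.563% and 9.74% of all genes.

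The genes whose within-group pattern was most opposite to the mean of the members over the 32 bladders were Gm47814 (r = -0.72), B3gnt8 (r = -0.70) and Nr1d1 (r = -0.70), whose Spearman rho was -0.51, -0.61 and -0.69. Nr1d1 encodes REV-ERB alpha, a repressor of the circadian clock. It was at 200 CPM in D + Q bladder 1, the lowest of all, and at 360 CPM in middle-aged bladder 3, the highest, with 227 CPM in young bladder 3 and 333 in young bladder 5. Without young bladders 3 and 5 its r was -0.63.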
